A study of Mus musculus with 6 samples.

Results

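The 10 genes described here belong to the program that dendritic cells switch on when they mature and leave a tissue for the lymph nodes: Ccr7, Fscn1, Marcksl1, Cacnb3, Net1, Samsn1, Tmem123, Socs2, Il15ra and Cd200. Their probe sets were taken from the array's annotation wherever it gave 1 gene symbol and that symbol was on the list. This found 22 of the array's 45101 probe sets, for 9 of the 10 genes. Cacnb3, a subunit of voltage-gated calcium channels, was not named there and was not analysed. A filter on dim signals kept 21 of the 22 probe sets, and 28254 of all probe sets.

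Expression was measured on 6 Affymetrix Mouse Genome 430 2.0 arrays. Bone marrow of C57BL/6 mice was grown for 6 days with GM-CSF at 10 ng/ml, a growth factor that drives marrow precursors to become dendritic cells, granulocytes and macrophages. Cells bearing CD11c and MHC II, the surface proteins used to define dendritic cells, were sorted on day 6 into a Ly6G+ group (Ly6G+ DC, 3 arrays) and a Ly6G- group (Ly6G- DC, 3 arrays). Ly6G is a surface protein of neutrophils. Both groups share the strain, the culture and the CD11c and MHC II gate, and the labels state no age. Whether the 3 arrays of a group stand for separate cultures or mice is not stated in the labels, and the spread behind each p-value may therefore be technical.

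A dendritic cell that matures stops taking up antigen and displays what it holds. It then places CCR7 on its surface and follows the chemokines CCL19 and CCL21 through lymph vessels to the node, where it meets T cells. The same cells rebuild their actin skeleton, turn on interleukin 15 presentation and carry ligands such as CD200 that restrain other immune cells. Cultures with GM-CSF hold both immature cells and cells that have matured without an added stimulus.

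Signals are linear values per probe set, scaled by the authors to a common trimmed mean on each array. Differences are given as Ly6G+ DC minus Ly6G- DC on the scale of log2(signal + 16), with standard errors (SE) from limma. An adjusted p is Benjamini-Hochberg adjusted over all 28254 kept probe sets, with 0.05 as the threshold. Each probe set binds with its own strength, so a rank as the brightest, or a sum over probe sets, describes readings of the array and not transcript levels. Arrays are named by group and by the number in their titles. The titles also hold an array name, Mouse430_2_2 on both arrays numbered 1 and Mouse430_2 on the others. What this name separates is not stated in the labels.

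The arrays also fell apart along a split that crosses the sort. The 18 probe sets for hybridization controls, transcripts added to every sample before hybridization, had geometric mean signals of 1529 to 2039 on Ly6G+ DC 1, Ly6G+ DC 3 and Ly6G- DC 1, the low side. They had 6688 to 12842 on Ly6G+ DC 2, Ly6G- DC 2 and Ly6G- DC 3, the high side. Low-side arrays had Actb 3'/5' signal ratios, a measure of RNA integrity, between 1.17 and 1.49, and high-side arrays between 3.98 and 6.85. As a log2 value this ratio was 0.94 ± 0.93 for Ly6G+ DC against 1.90 ± 1.46 for Ly6G- DC (SD, n = 3, exact two-sided permutation p = 0.4, where 0.1 is the smallest p possible). Each side holds both groups, at 1 array to 2.

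Promoter sequence was available from RefSeq (build GRCm38.p6) for 8 of the 10 genes, in 12 windows of 250 bases that end at a transcription start. The 3 shown belong to Fscn1 and Marcksl1, whose kept probe sets were all lower on average in Ly6G+ DC, and to Samsn1, whose difference was near 0. All are written 5′ to 3′ on the gene's own strand. In capitals are matches to the motifs searched on both strands: GAGGAA, the core bound by the myeloid factor PU.1, TGAGTCA, bound by AP-1, the kappa B site bound by NF-kB, TATAAA, and TGACGTCA, the cyclic AMP response element.
Fscn1, chr5:142960105-142960354, + strand: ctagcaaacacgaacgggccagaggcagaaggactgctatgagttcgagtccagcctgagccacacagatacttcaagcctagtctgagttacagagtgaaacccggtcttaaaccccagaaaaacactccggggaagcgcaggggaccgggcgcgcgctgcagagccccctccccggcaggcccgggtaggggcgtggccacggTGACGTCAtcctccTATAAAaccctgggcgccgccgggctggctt
Marcksl1, chr4:129513331-129513580, + strand: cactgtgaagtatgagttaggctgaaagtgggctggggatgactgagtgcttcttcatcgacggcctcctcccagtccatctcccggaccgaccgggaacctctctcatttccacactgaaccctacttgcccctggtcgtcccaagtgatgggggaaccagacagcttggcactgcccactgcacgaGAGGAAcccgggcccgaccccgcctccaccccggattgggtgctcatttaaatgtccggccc
Samsn1, chr16:75909267-75909516, - strand: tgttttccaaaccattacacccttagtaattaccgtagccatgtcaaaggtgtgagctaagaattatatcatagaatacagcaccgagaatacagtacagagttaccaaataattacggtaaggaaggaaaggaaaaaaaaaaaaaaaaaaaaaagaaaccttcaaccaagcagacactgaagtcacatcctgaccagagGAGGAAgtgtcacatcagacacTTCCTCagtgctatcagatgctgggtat

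The Fscn1 window held TGACGTCA at 45 to 38 bases and TATAAA at 31 to 26 bases before the start. Both motifs were added to the search after the sequences were seen. TATAAA was in 12.4% and TGACGTCA in 1.55% of the 32851 windows of this length in the table. Marcksl1 held GAGGAA at 62 to 57 bases before the start, and Samsn1 held it once on each strand, at 50 to 45 and at 28 to 23 bases. This core was in 4 of the 12 member windows and in 23.3% of all windows. TGAGTCA was in 1 member window, of Il15ra, and in 4.46% of all windows. The kappa B site was in 0 of the 12 member windows and in 7.25% of all windows. A match describes the letters of these windows alone.

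Signals of the member genes lay lower in Ly6G+ DC at most probe sets, and none passed the test. Of the 21 kept member probe sets, 19 had a negative log2 difference, where 55.0% of all kept probe sets were negative. Their median difference was -0.70, against -0.06 over all kept probe sets. With limma, 0 of the 21 were called at the adjusted threshold, and 0 of all 28254 probe sets were (0%). The smallest adjusted p among the members was 0.836, where the smallest over all probe sets was 0.165. Without adjustment, limma's p lay under 0.05 at 1589 of all probe sets and at 3 of the members (Ccr7 and 2 of Fscn1), all lower in Ly6G+ DC, against a background of 2.87% in that direction. As higher in Ly6G+ DC it was under 0.05 at 0 members and at 2.75% of all probe sets.

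**Figure D1:**
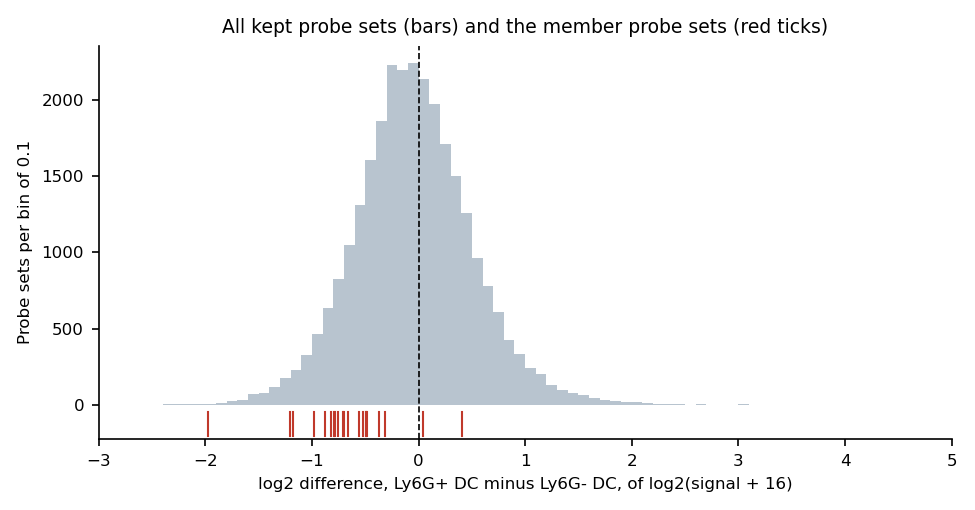
Histogram of the log2 difference (Ly6G+ DC minus Ly6G- DC, of log2(signal + 16)) over the 28254 kept probe sets, in bins of 0.1, with the 21 member probe sets as red ticks under the bars. Of the ticks, 19 lie left of 0, with a median of -0.70, and 2 lie right of it.

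The groups did not overlap at 5 of the 21 member probe sets, all lower in Ly6G+ DC, where 7.24% of all probe sets had that pattern. No overlap with a higher signal in Ly6G+ DC was found at 0 members and at 4.49% of all probe sets. The lower pattern was found for Ccr7, for 1 probe set of Fscn1, for 2 of Socs2 and for 1 of Il15ra. A count made after the values were seen asked for no overlap within the low side and within the high side separately. It held for 13 of the 21 member probe sets as lower in Ly6G+ DC, with a background of 15.4%. As higher in Ly6G+ DC it held for 0 of them and for 3467 of all 28254 probe sets. Differences were negative at 20 of 21 members within the low side and at 20 of 21 within the high side, against 56.7% and 48.3% of all probe sets. Within both sides they were negative at 19 of 21, against 30.7%. The medians of the members were -0.49 and -0.60 within the sides. The 21 probe sets are repeated readings of 9 genes, so counts over them are not counts of separate genes.

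Ccr7, the receptor for CCL19 and CCL21, has 1 probe set on the array (1423466_at). Its signals were 5865, 4227 and 4080 on Ly6G+ DC 1 to 3, and 10131, 6096 and 12719 on Ly6G- DC 1 to 3. Every Ly6G+ array lay below every Ly6G- array, with Ly6G+ DC 1 and Ly6G- DC 2 closest together. Means were 4724 ± 991 and 9649 ± 3338 (SD, n = 3), and the log2 difference was -0.98 ± 0.37 (SE, limma, adjusted p = 0.836), with a 95% interval of -1.80 to -0.16 before adjustment. The signal was among the brightest of each array, at the 97.9th percentile or above. The difference was -1.05 within the low side and -1.06 within the high side, and high-side arrays exceeded low-side arrays by 0.14 on the log2 scale.

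Fscn1 encodes fascin, which bundles actin filaments and shapes the long processes of mature dendritic cells. It has 4 probe sets, and all had lower mean signals in Ly6G+ DC. The probe set 1448378_at read 1353, 1303 and 476 on Ly6G+ DC 1 to 3, against 2717, 1729 and 2254 on Ly6G- DC 1 to 3. The groups did not overlap, and the log2 difference was -1.20 ± 0.42 (SE, limma, adjusted p = 0.836). Ly6G+ DC 3 was the lowest array, and without it the difference was -0.72. It was -1.74 within the low side and -0.59 within the high side. The brightest, 1416514_a_at, read 6445, 23505 and 11909 for Ly6G+ DC, against 11371, 34840 and 53210 for Ly6G- DC. Here Ly6G+ DC 2 and Ly6G+ DC 3 lay above Ly6G- DC 1, and the difference was -1.18 ± 0.63, or -0.71 without Ly6G- DC 3. High-side arrays exceeded low-side arrays by 1.88 on the log2 scale at this probe set, by 0.50 at 1448378_at and by 0.08 at 1416515_at.

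With the hybridization side as a block, the difference at 1416514_a_at was -0.62 ± 0.30 (SE), and that at 1448378_at was -1.16 ± 0.41. The third probe set, 1416515_at, read 326, 80.3 and 3.34 on Ly6G+ arrays against 671, 166 and 291 on Ly6G- arrays. Its difference was -1.97 ± 0.89, and -0.89 without Ly6G+ DC 3, whose 3.34 lay under that array's 40th percentile of 36.0. The remaining one, 1416516_at, exceeded the 40th percentile on 2 of 6 arrays and was not tested. Its signals were 69.4, 15.7 and 4.19 for Ly6G+ DC against 201, 21.4 and 21.2 for Ly6G- DC.

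Marcksl1, a membrane-bound substrate of protein kinase C that also binds actin and calmodulin, had 4 kept probe sets with differences from -0.88 to -0.76. The brightest, 1437226_x_at, read 4948, 5972 and 3073 on Ly6G+ DC 1 to 3 and 5394, 7483 and 11497 on Ly6G- DC 1 to 3. The groups overlapped, since Ly6G+ DC 2 lay above Ly6G- DC 1, and the difference was -0.78 ± 0.39 (SE, limma, adjusted p = 0.836). All 4 carry the suffix x or s, which marks probes that can match more than 1 transcript. The one with the suffix s, 1415922_s_at, read 3891, 2005 and 1308 for Ly6G+ DC against 5344, 2457 and 4367 for Ly6G- DC, a difference of -0.82 ± 0.45, or -0.46 without Ly6G+ DC 3. The 3 with the suffix x were higher on the high side by 0.88 to 1.44 on the log2 scale, whereas 1415922_s_at differed by -0.11. With the side as a block, the 4 differences ranged from -0.97 to -0.31.

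**Figure D2:**
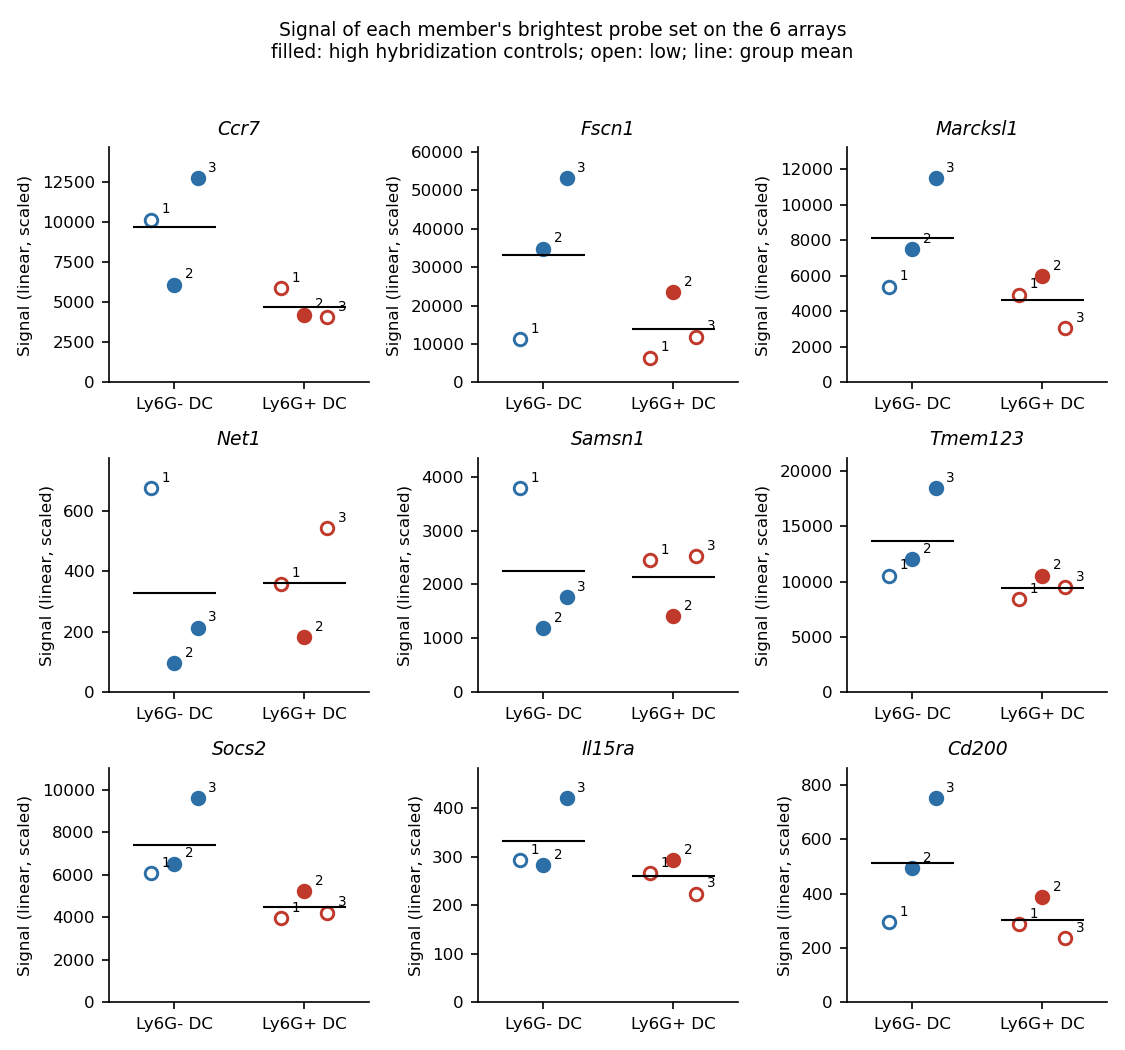
Linear signal of the brightest kept probe set of each of the 9 measured members, 1 panel per gene with its own axis from 0. Points are arrays, numbered as in their titles and filled for high hybridization controls, and lines are group means. Ccr7 and Socs2 show no overlap between groups, while Net1 and Samsn1 show filled points low and open points high in both groups.

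Net1 and Samsn1 were the exceptions among the members. Net1 activates the small GTPase RhoA, and its probe set 1421321_a_at read 359, 183 and 542 on Ly6G+ DC 1 to 3 and 675, 97.3 and 214 on Ly6G- DC 1 to 3. The highest and the lowest value both came from Ly6G- DC, and the difference was 0.40 ± 0.62 (SE, limma, adjusted p = 0.913). Samsn1, an adaptor that dampens lymphocyte signalling, read 2456, 1414 and 2525 for Ly6G+ DC against 3785, 1190 and 1765 for Ly6G- DC. Its difference was 0.05 ± 0.44, with a 95% interval of -0.93 to 1.02. Both genes were lower on the high side, with differences between sides (high minus low) of -1.60 and -0.99 on the log2 scale. With the side as a block, the differences turned to -0.15 ± 0.38 and -0.32 ± 0.26.

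Socs2, a suppressor of cytokine signalling that STAT5 induces, had 6 kept probe sets with differences from -0.79 to -0.37. The brightest, 1449109_at, read 3953, 5216 and 4225 on Ly6G+ DC 1 to 3, against 6079, 6526 and 9603 on Ly6G- DC 1 to 3. The groups did not overlap, and the difference was -0.71 ± 0.33 (SE, limma, adjusted p = 0.836). It was -0.57 within the low side and -0.60 within the high side. The groups were also separate at 1446085_at, which read 235, 203 and 276 against 364, 369 and 332, a difference of -0.56 ± 0.29. At the other 4 probe sets the groups overlapped, with differences of -0.79, -0.52, -0.48 and -0.37. The first of these was at the dim 1441476_at, which read 43.0 to 191 and lay under the 40th percentile on Ly6G+ DC 1.

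**Figure D3:**
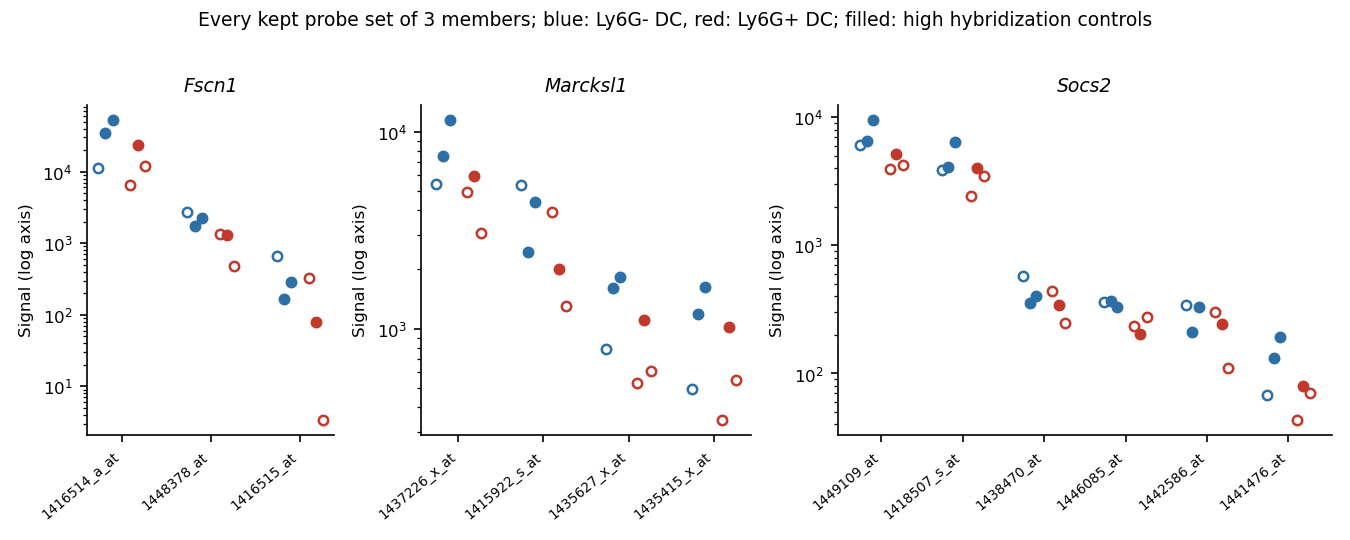
Signal, on a log axis, of every kept probe set of Fscn1, Marcksl1 and Socs2 on the 6 arrays, blue for Ly6G- DC, red for Ly6G+ DC and filled for high hybridization controls. At 1416514_a_at of Fscn1 the filled points of each group lie above its open points, whereas at 1448378_at all red points lie below all blue ones.

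Il15ra binds interleukin 15 and presents it to neighbouring T and NK cells. Its probe set 1422397_a_at read 118, 131 and 146 on Ly6G+ DC 1 to 3 and 239, 191 and 153 on Ly6G- DC 1 to 3. The groups did not overlap, but Ly6G+ DC 3 and Ly6G- DC 3 were close, and the difference was -0.50 ± 0.34 (SE, limma, adjusted p = 0.844). The brighter probe set, 1448681_at, read 266, 293 and 224 against 293, 282 and 420. Only Ly6G- DC 3 stood clear of the rest there, and the difference was -0.32 ± 0.31.

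Cd200, the ligand of an inhibitory receptor on myeloid cells, read 287, 387 and 235 on Ly6G+ DC 1 to 3 at 1448788_at. On Ly6G- DC 1 to 3 it read 295, 494 and 752. Ly6G+ DC 2 lay above Ly6G- DC 1, and the difference was -0.66 ± 0.38 (SE, limma, adjusted p = 0.836). It was -0.35 without Ly6G- DC 3, the highest array. Tmem123, a mucin-like membrane protein, read 8392, 10538 and 9474 against 10530, 12008 and 18436 at 1448623_at, its brightest probe set. Ly6G+ DC 2 (10538) and Ly6G- DC 1 (10530) all but coincided there, which made the groups overlap, and the difference was -0.49 ± 0.36, or -0.25 without Ly6G- DC 3. The other Tmem123 probe set, 1417222_a_at, had -0.70 ± 0.73, and from -1.53 without Ly6G- DC 1 to -0.05 without Ly6G+ DC 1. It was higher on the high side by 1.95 on the log2 scale, and with the side as a block its difference was -0.05 ± 0.42.

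**Figure D4:**
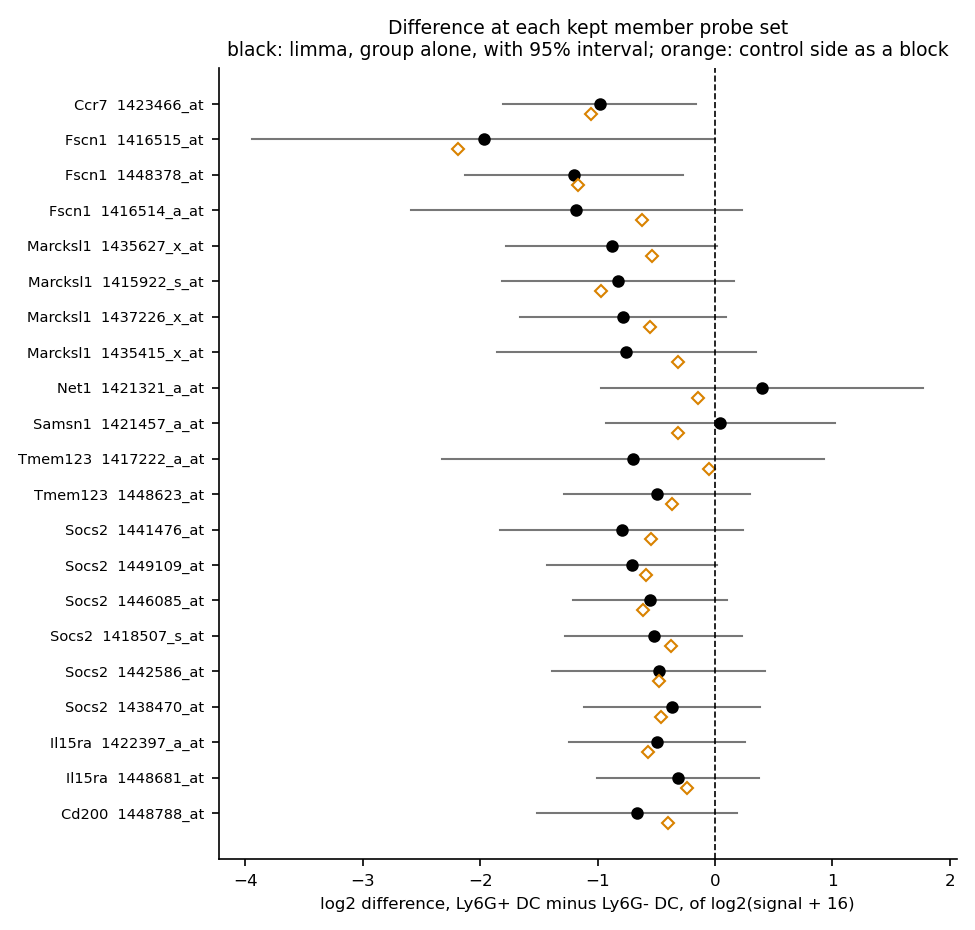
Log2 difference (Ly6G+ DC minus Ly6G- DC) at each of the 21 kept member probe sets, as black points with 95% intervals from limma with the group alone, and as orange diamonds with the hybridization side as a block. Black points lie left of 0 at 19 probe sets and orange diamonds at all 21, from -0.05 at Tmem123 to -2.19 at Fscn1.

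With the side as a block, 21 of 21 member probe sets were negative, with a median of -0.54 against -0.02 over all probe sets, and limma called 0. Ccr7 then had -1.05 ± 0.30 (SE, limma, adjusted p = 0.743). The count of members with an unadjusted p under 0.05 depended on single arrays, and the share of all probe sets moved with it. Lower in Ly6G+ DC were 3 members in the fit of all arrays (2.87% of all probe sets) and 10 without Ly6G- DC 1 (6.52%), with 1 higher (7.39%). Without Ly6G- DC 3 it was 1 (1.25%), and without Ly6G+ DC 3 it was 0 (1.10%). Leaving out any one of the other arrays gave 4, all lower (2.02% to 3.76%). Ccr7 ranged from -1.28 to -0.75 when 1 array was left out, and Socs2 at 1449109_at from -0.83 to -0.51.

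Averaged over the 9 measured genes at their brightest kept probe set, each centred on its mean of the 6 arrays, the members stood at -0.31, -0.17 and -0.30 on Ly6G+ DC 1 to 3. On Ly6G- DC 1 to 3 they stood at 0.18, -0.04 and 0.65 on the log2 scale. The groups were separate, with Ly6G- DC 2 nearest to the Ly6G+ arrays and Ly6G- DC 3 far above all others. Of the 9 genes, 7 had negative differences, where 55.7% of all 13262 genes had. The groups did not overlap for 2 of the 9, lower in Ly6G+ DC, where 7.86% of all genes had that pattern. Within both hybridization sides separately this held for 5 of the 9 and for 2196 of all 13262 genes. Limma's unadjusted p lay under 0.05 for 1 of the 9, where it did for 6.18% of all genes.

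**Figure D5:**
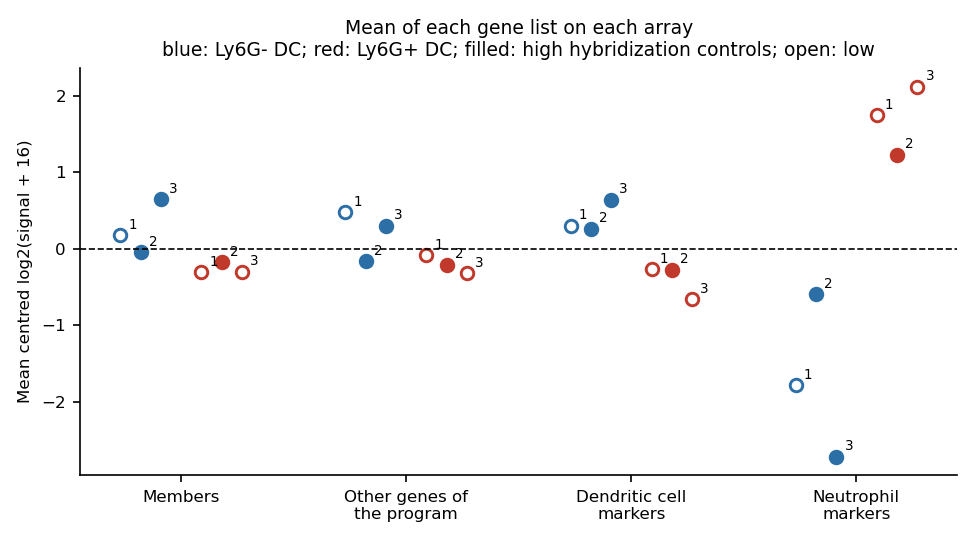
Mean centred log2(signal + 16) of 4 gene lists on each array, blue for Ly6G- DC and red for Ly6G+ DC, numbered as in the titles and filled for high hybridization controls. The members span -0.31 to -0.17 on Ly6G+ arrays and -0.04 to 0.65 on Ly6G- arrays, and neutrophil markers lie above 1.2 on Ly6G+ arrays and below -0.5 on Ly6G- arrays.

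Other genes of the mature, migratory program were taken from a list of 30, of which 26 were measured. Of these, 22 had negative differences and 4 positive ones, and 0 passed limma's adjusted threshold, with a median of -0.43 against -0.07 over all genes. Unadjusted, limma's p lay under 0.05 for 2 of the 26, where it did for 6.18% of all genes. The groups did not overlap for 3 as lower in Ly6G+ DC and for 1 as higher, where 7.86% and 4.95% of all genes had these patterns. The brightest were the T cell-attracting chemokines Ccl22 and Ccl17, with -0.76 ± 0.39 and -0.14 ± 0.36 (SE), and the maturation marker Cd83, with -0.74 ± 0.33. Ccl22 read 13419, 15281 and 8722 on Ly6G+ arrays against 17219, 17875 and 28139 on Ly6G- arrays, with no overlap. Cd83 did not overlap either, at 3658 to 4851 in Ly6G+ DC against 5064 to 8711 in Ly6G- DC.

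The differences farthest from 0 on that list were those of Aldh1a2, Mreg and Fas. Aldh1a2 makes retinoic acid, and it read 1043, 2295 and 904 on Ly6G+ arrays against 1765, 3374 and 5889 on Ly6G- arrays. Its difference was -1.33 ± 0.49 (SE, limma, adjusted p = 0.836), with -0.85 within the low side and -0.95 within the high side. Mreg, which encodes melanoregulin, had -1.14 ± 0.65 and was higher on the high side by 1.89. Fas, a death receptor, ran the other way with 0.79 ± 0.36, at 394, 435 and 861 for Ly6G+ DC against 299, 244 and 369 for Ly6G- DC, with no overlap.

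Genes for the signalling and motility machinery that CCR7 engages were measured for 25 of 28 listed. Of these, 15 had negative and 10 positive differences, with a median of -0.07, equal to that of all genes at this rounding, and 0 were called (0 also at an unadjusted p under 0.05, limma). The brightest were Cfl1, the actin-severing cofilin, with -0.33 ± 0.56 (SE), Pik3cd, a phosphoinositide kinase, with -1.09 ± 1.48, and Gnai2, an inhibitory G protein subunit, with -0.42 ± 0.45. Pik3cd followed the hybridization side: it was higher there by 4.22 on the log2 scale. Rhob and Dock8, a GTPase and an exchange factor of moving leukocytes, had 0.78 ± 0.58 and 0.73 ± 0.48, with overlap between groups. The ligands of CCR7 were not analysed here.

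Partners and paralogs of the members were measured for 23 of 27 listed, with 12 negative and 11 positive differences, a median of -0.02 and 0 calls by limma. Unadjusted, limma's p lay under 0.05 for 2 of the 23, Cd200r4 and Stat5a, a share near the 6.18% of all genes. The same 2 were those without overlap, 1 in each direction, where 7.86% of all genes had no overlap as lower and 4.95% as higher in Ly6G+ DC. Cd200r4, an activating relative of the CD200 receptor, read 1384, 2419 and 2308 on Ly6G+ arrays against 1137, 1229 and 745 on Ly6G- arrays. The groups did not overlap, and the difference was 0.95 ± 0.34 (SE, limma, adjusted p = 0.836), of opposite sign to that of Cd200. Stat5a, which acts below the GM-CSF receptor and induces Socs2, was singled out after its values were seen. It read 941, 723 and 620 for Ly6G+ DC against 1639, 1159 and 1517 for Ly6G- DC, with a difference of -0.91 ± 0.30 (limma, adjusted p = 0.836) and no overlap. On the same list, Stat5b had 0.003 ± 0.29 and Cish had -0.38 ± 0.37 (SE), both with overlap between groups. A link between Stat5a and Socs2 in these cells was not tested.

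Among the other partners, Lsp1, an actin-binding protein of leukocytes, had a difference of -0.46 ± 0.32 (SE). Marcks, the closest relative of Marcksl1, had -0.97 ± 0.79 and was higher on the high side by 2.10 on the log2 scale. Socs3 had 0.28 ± 0.53. Il2rb, a receptor chain for interleukin 15, was dim in Ly6G+ DC, with mean signals of 31.8 ± 26.4 against 77.9 ± 42.9 (SD, n = 3). The groups overlapped, at 62.2, 18.3 and 14.8 on Ly6G+ arrays against 62.8, 44.6 and 126 on Ly6G- arrays. The 44.6, on Ly6G- DC 2, also lay under that array's 40th percentile of 59.5. The difference was -1.01 ± 0.61 (SE, limma, adjusted p = 0.840). Counted against the 40th percentile of the Ly6G+ arrays, the average fold was 1.32, which sets no minimum.

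Markers of neutrophils, which the Ly6G gate could hold, separated the groups without overlap but with 0 of them past limma's adjusted threshold (smallest adjusted p = 0.165). All 11 that were measured had positive differences and no overlap between groups, where 4.95% of all genes did. Unadjusted p-values of limma were under 0.05 for all 11, where 6.18% of all genes were in either direction. Cxcr2, which had that smallest adjusted p, and Cd177 exceeded the 40th percentile on 3 Ly6G+ arrays and 0 Ly6G- arrays. The filter kept them through the Ly6G+ arrays alone. Some other markers exceeded that percentile on 3 Ly6G+ arrays and 1 Ly6G- array, and also needed the Ly6G+ arrays to be kept. The direction of all these was therefore not independent of the filter, and the counts of 11 include them. The summed signal of all 11 was 67977 to 91818 on Ly6G+ arrays and 2327 to 13174 on Ly6G- arrays. S100a8, a calcium-binding protein abundant in neutrophils, read 22222 to 30299 in Ly6G+ DC against 925 to 4628 in Ly6G- DC. Lcn2, a granule protein, had the difference farthest from 0 among them, at 4.48 ± 0.67 (SE).

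Of 12 dendritic cell markers, 11 had negative differences, where 55.7% of all genes had, and 0 passed limma's adjusted threshold. Unadjusted p-values of limma were under 0.05 for 5, all lower in Ly6G+ DC, where 6.18% of all genes were in either direction. The groups did not overlap for 7, all lower in Ly6G+ DC, where 7.86% of all genes had that pattern. Summed signals of the 12 markers were 68513 to 140143 in Ly6G+ DC against 108378 to 249666 in Ly6G- DC, so the ranges overlapped. The brightest of them, H2-Aa and Cd74, were higher on the high hybridization side by 2.28 and 1.37 on the log2 scale. Flt3, a growth factor receptor of dendritic cells and their precursors, read 33.2, 32.9 and 38.3 on Ly6G+ arrays against 128, 147 and 251 on Ly6G- arrays. It was at least 2.94-fold lower in Ly6G+ DC (limma, adjusted p = 0.768). Itgax and the MHC II genes, which code for the gate's own proteins, were bright in both groups. The part of neutrophil and dendritic cell markers in the members' differences was not tested, and in bulk samples fewer cells of a type and less RNA per cell cannot be told apart.

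Of 9 macrophage markers, 4 had negative and 5 positive differences, with 0 calls by limma and summed signals of 33020 to 45033 in Ly6G+ DC against 29791 to 56717 in Ly6G- DC. Of 9 T and B lymphocyte markers, 4 were measured. All 4 had negative differences, with a median of -0.39 and 0 calls, and their summed signal was 329 to 449 in Ly6G+ DC against 419 to 688 in Ly6G- DC. The groups did not overlap for 1 of the 4, where 7.86% of all genes had that pattern, and overlapped for the others. This was Ms4a1, a B cell surface protein, at 72.9 to 82.7 in Ly6G+ DC against 105 to 176 in Ly6G- DC. The T cell genes Cd3e, Cd3g and Cd4 were removed by the filter on dim signals.

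The pattern of Ccr7 over the 6 arrays was most like those of Poglut1, Fbxl17, Trim35, Pdlim4 and Krt6a, with Pearson's r from 0.981 to 0.99. These were the 5 highest of 13261 genes at their brightest probe set, ranked on 6 arrays that share their scaling, and are given as a description. Poglut1, a glucosyltransferase, read 1069, 801 and 862 on Ly6G+ arrays against 1980, 1095 and 2165 on Ly6G- arrays. Pdlim4, an actin-associated protein, read 351, 261 and 217 against 543, 388 and 871. Among the members, Il15ra, Socs2 and Marcksl1 were nearest to Ccr7 by Pearson's r, at 0.80, 0.78 and 0.70. They ranked only 650, 753 and 1342 among the 13261 genes. Net1 was farthest from it, with r = 0.08.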

How the data were processed

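The authors deposited linear signal intensities per probe set, with each array's 2% trimmed mean at 250.0. MAS5, GCOS and Affymetrix Expression Console 2.0 appear in the submitters' processing notes, and any further setting is not given in the sources used here. Signals from MAS5 are noisy where dim, because mismatch signal is subtracted. In GEO's platform annotation, 34958 probe sets had 1 symbol, 932 several and 9211 none.

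From these, log2(signal + 16) was computed with the authors' scaling kept. Probe sets were kept if at least 3 of the 6 arrays had them above the 40th percentile, and tested by limma 3.58.1 (R 4.3.3; lmFit, eBayes with a trend) with the group alone, a fit checked on simulated data. The pseudocount understates differences of dim probe sets. The number of arrays limits the precision. Where a dimmer group's mean lay under the 40th percentile, the fold compares group averages and is no minimum over arrays. The dimmer group then enters with the higher of the signal and that percentile, per array.

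The members and lists were chosen with earlier results of these data known. Named were all member probe sets, the 5 genes most like Ccr7 and, for each of the 3 lists of related genes, those called, the 3 brightest and the 3 with the farthest difference from 0. Stat5a, Stat5b and Cish were named beyond this rule, after their values were seen. Marker lists are given by their counts, with up to 4 genes named per list. Of these, Lcn2, Cxcr2, Cd177, Flt3, H2-Aa, Cd74 and Ms4a1 were picked after their values were seen. Hybridization sides were split at the widest gap. Promoters are RefSeq's, GRCm38.p6. There were 17 alternatives. Same-numbered arrays had deviations correlated at 0.52, 0.26 and -0.04, and the labels do not tie numbers to cultures, so numbers were not treated as pairs.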

Additional observations from a re-analysis of the deposited data

How the results depend on the processing

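No member probe set was called by limma under any of the 17 alternatives, and 19 of the 21 kept their sign in all that tested them. The exceptions were Net1 and Samsn1: with the hybridization side as a block they had log2 differences of -0.15 and -0.32, Samsn1 had -0.026 with quantile normalization, and leaving out 1 array gave -0.20 to 1.10 for Net1 and -0.32 to 0.50 for Samsn1. The causes were not tested. Scaling to a common median moved the median of all probe sets from -0.06 to 0.23 and that of the members to -0.37, which is -0.60 relative to all, against -0.63 with the authors' scaling. Ccr7 then had -0.65 ± 0.39 (SE), and some kept signs rested on values near 0, with -0.05 at 1438470_at of Socs2 and -0.0014 at 1448681_at of Il15ra. Limma's unadjusted p was then under 0.05 at 0 members (0.846% of all probe sets as lower in Ly6G+ DC, 6.28% as higher). Leaving out 1 array gave member medians of -0.83 to -0.49 and 0 to 24 calls over all probe sets (24 without Ly6G- DC 1, 1 without Ly6G+ DC 2, 1 without Ly6G- DC 2). With the replicate number as a block, which is no established pairing, limma called 19 probe sets, and with the array name 21, none of them members, whose smallest adjusted p was 0.325 and 0.279. Dim signals limit 1416515_at and 1416516_at of Fscn1.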
